A study of Mus musculus with 288 samples.

Results

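Abcc8, Kcnj11, Slc5a1 and Slc2a2 were followed in single enteroendocrine cells of the mouse upper small intestine. They were chosen by name, as the genes of the ATP-sensitive potassium (KATP) channel and of glucose uptake, and are 4 of the 46078 mouse genes in the count table. The cells came from GLU-Venus mice, in which the proglucagon promoter drives the yellow fluorescent protein Venus, on a C57BL6 background. By the study's methods they were males of 20 to 21 weeks, and single cells from the proximal part of the small intestine were sorted into wells and sequenced by Smart-seq2, which copies full-length mRNA and marks neither strand nor molecule. There were 288 cells in 3 pools of 96, and each pool was taken as 1 mouse. By the same methods pool SLX-9703 held Venus-positive cells, while pools SLX-11175 and SLX-11179 also held Venus-negative cells that the labels do not tell apart.

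Cells with at least 20000 reads on mouse genes and at most 20% of them from mitochondrial genes were kept, which left 250 of the 288 cells (75 from SLX-11175, 87 from SLX-11179 and 88 from the deeply sequenced SLX-9703). They were placed in classes by 3 transcripts, in CPM, the reads of a gene per 1000000 reads on mouse genes of the cell. Cells with 10000 CPM or more of Gcg (proglucagon) numbered 53, with 16, 18 and 19 in the pools in that order. Cells with 10000 CPM or more of Gip (glucose-dependent insulinotropic polypeptide) numbered 25, with 10, 5 and 10. Cells with 100 CPM or more of Pzp (a secreted protease inhibitor) numbered 64, with 14, 22 and 28. A further 5 cells passed more than 1 of these thresholds, and 103 cells passed none and are called other cells. Cells are not replicates, so classes were compared over the 3 pools, on the reads of all cells of a class in a pool added up (the class sum).

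The KATP channel is an octamer of pore subunits, encoded by Kcnj11 (Kir6.2), and regulatory sulphonylurea receptor subunits, encoded by Abcc8 (SUR1). It closes when ATP rises, and in pancreatic beta cells this links glucose metabolism to depolarisation, calcium entry and insulin release. Slc5a1 encodes SGLT1, the sodium-coupled glucose and galactose carrier of the brush border, whose inward current accompanies each glucose molecule. Slc2a2 encodes GLUT2, a facilitative glucose carrier of enterocytes, hepatocytes and beta cells. L-cells and K-cells, the classical sources of GLP-1 and GIP, are known to answer to luminal glucose through SGLT1, and KATP subunits have been described in both.

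In coordinates of mm10 (GRCm38), Abcc8 (ENSMUSG00000040136) is at chr7:46104523-46180033 and Kcnj11 (ENSMUSG00000096146) at chr7:46093953-46100764, both on the minus strand and 3758 bases apart. Slc5a1 (ENSMUSG00000011034) is at chr5:33104219-33162870 and Slc2a2 (ENSMUSG00000027690) at chr3:28697903-28731359, both on the plus strand. Abcc8 overlaps the annotated genes Gm45487 and Gm45486, Slc5a1 overlaps the pseudogenes Gm15936 and 5033423K11Rik, and Slc2a2 overlaps the antisense gene 1700112D23Rik. Reads from these overlaps cannot be told apart by strand. Kcnj11 overlaps no other annotated gene.

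The promoters of both glucose carriers are shown because a basic helix-loop-helix factor, Neurod1, is among the abundant endocrine genes described below, and factors of this class bind the letters CANNTG, the E-box. The sequences run from 250 bases before to 50 bases after the transcription start, on the plus strand, from RefSeq (GRCm38.p6), at chr5:33103969-33104268 for Slc5a1 and chr3:28697653-28697952 for Slc2a2. Capitals mark CANNTG, which matches itself on the other strand, and no marked runs overlap.
Slc5a1: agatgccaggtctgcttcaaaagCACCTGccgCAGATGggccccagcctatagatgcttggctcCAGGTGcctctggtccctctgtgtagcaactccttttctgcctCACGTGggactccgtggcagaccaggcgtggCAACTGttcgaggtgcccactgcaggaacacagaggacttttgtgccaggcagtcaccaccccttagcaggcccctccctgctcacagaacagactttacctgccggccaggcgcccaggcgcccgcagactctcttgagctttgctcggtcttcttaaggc
Slc2a2: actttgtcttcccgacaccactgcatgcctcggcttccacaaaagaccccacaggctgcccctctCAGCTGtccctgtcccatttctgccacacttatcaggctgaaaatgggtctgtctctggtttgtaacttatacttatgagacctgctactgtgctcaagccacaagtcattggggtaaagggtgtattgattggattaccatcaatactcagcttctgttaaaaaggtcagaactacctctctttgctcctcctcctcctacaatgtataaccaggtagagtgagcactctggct
The Slc5a1 window held 5 E-boxes and the Slc2a2 window held 1, and 72.3% of 32851 mouse promoter windows of the same length held at least 1. Neither window held TATAAA (in 13.6% of windows on either strand), GTTAAT (7.10%) or GGGCGG (35.7%). These are matches of letters and not measured sites.

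Depth differed between pools and sets what could be seen. The median cell had 52571 reads on mouse genes in pool SLX-11175, 70726 in pool SLX-11179 and 1975706 in pool SLX-9703. Of the 3 hormone classes, Gip cells were the shallowest in pool SLX-11175 (median 28664.5 reads) and in pool SLX-9703 (median 831266) and the deepest in pool SLX-11179 (median 110587). The 8 enteroendocrine markers (Chga, Chgb and others) summed to 21413 to 42866 CPM in the Gcg sums, 2443 to 9325 in the Gip sums and 9145 to 19658 in the Pzp sums. Chgb gave 14770, 12470 and 28148 CPM of the Gcg sums. Chga, Chgb and Cpe were higher in Gcg than in Pzp sums in every pool. Scg2 was higher in Pzp sums in every pool (4032, 5673 and 8980 CPM, against 3093, 4010 and 6643). The other markers had no such order. The 5 goblet cell markers summed to 4634 to 5800 CPM in the Pzp sums, 403 to 739 in the Gcg sums and 11.9 to 208 in the Gip sums. Tff3 alone gave 4416, 4702 and 5503 CPM of the Pzp sums. Muc2 was there at 1.18, 0.617 and 0.017 CPM and Clca1 at 0. The part of these differences in depth and markers in the results that follow was not tested.

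**Figure D1:**
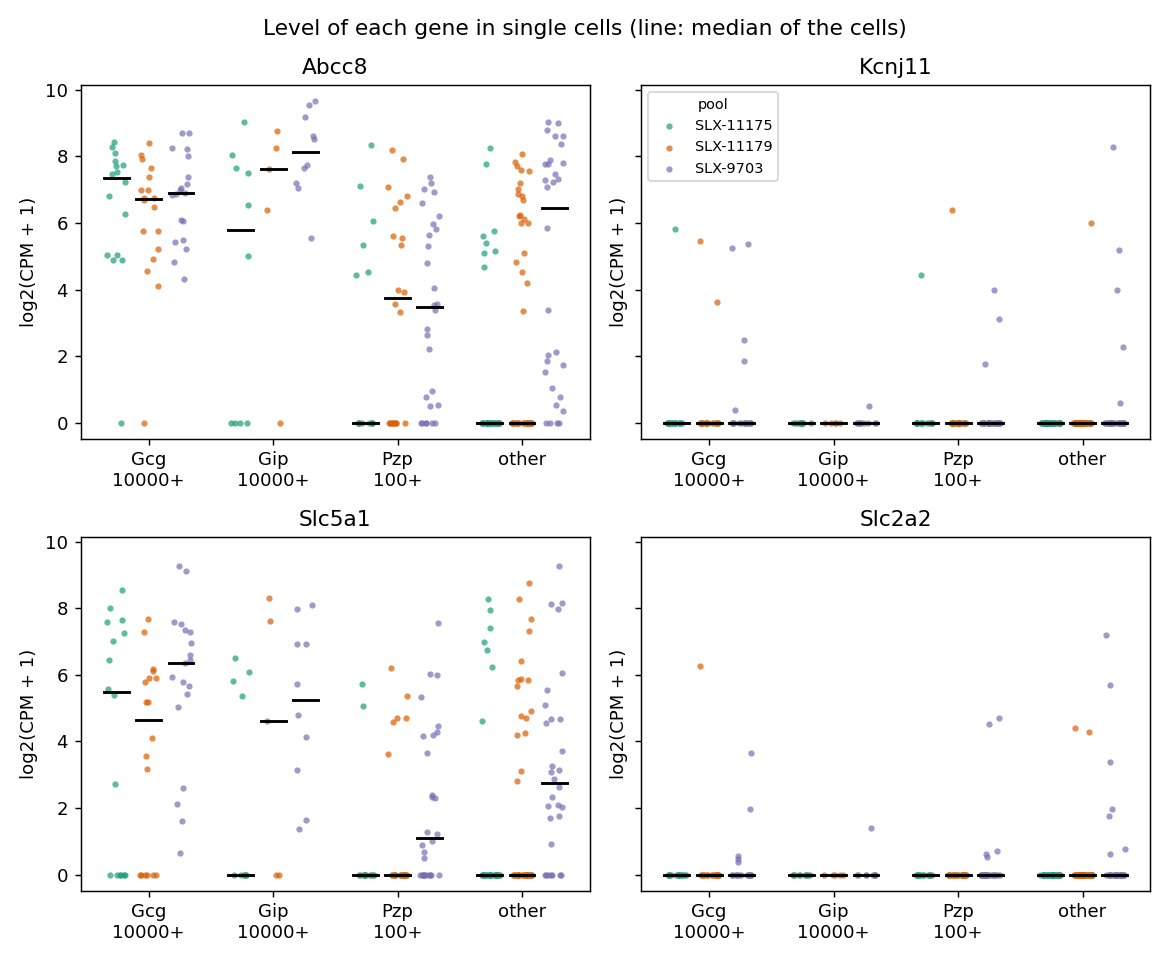
Level of each gene in 245 single cells as log2(CPM + 1) by class, with 1 point per cell, colours for the 3 pools and a black line at the median of each group of cells. Abcc8 and Slc5a1 spread over most Gcg and Gip cells, whereas Kcnj11 and Slc2a2 were at 0 in most cells of every class.

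Abcc8, the regulatory subunit of the channel, was the most widely found of the 4 genes. In Gcg cells it ranged from 0 to 341 CPM (median 163) in pool SLX-11175, from 0 to 340 CPM (median 104) in pool SLX-11179 and from 18.8 to 416 CPM (median 119) in pool SLX-9703. In Gip cells it ranged from 0 to 517 CPM (median 61.9), from 0 to 437 CPM (median 197) and from 45.7 to 810 CPM (median 292) in the same order. In Pzp cells the medians were 0, 12.5 and 10.1 CPM, with a highest cell of 323, 292 and 167 CPM. Single Gcg and Gip cells thus overlapped widely, and the typical Pzp cell lay below both in each pool.

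The Abcc8 class sums, scaled by TMM (a trimmed mean of M values that evens out library composition), were 128, 127 and 107 CPM in Gcg cells, or 121 ± 11.9 CPM (SD, n = 3 pools). They were 239, 184 and 409 CPM in Gip cells (278 ± 117) and 27.8, 42.4 and 27.3 CPM in Pzp cells (32.5 ± 8.62). The sums of the 3 classes did not overlap, with Gip highest and Pzp lowest in every pool. For how many of all genes the sums do not overlap was not counted. The study names Abcc8 among genes enriched in its cluster with higher Gcg. It compared clusters in the deeply sequenced mouse alone, where its cluster with high Gip held few cells. Its clusters were not defined by the thresholds used here. Between Gip and Pzp cells the Abcc8 level was 8.54 times as high in the means, a log2 fold change of 3.09 ± 0.50 (SE), with adjusted p = 0.00243 (edgeR, quasi-likelihood, pools as blocks). Both members that could be tested, Abcc8 and Slc5a1, were called in this comparison, in which 2.86% of 9656 genes were called and the median gene had a log2 fold change of -0.24. Without the deep pool SLX-9703 the Abcc8 difference was 2.67 with adjusted p = 0.0587 by the same edgeR test.

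Between Gcg and Pzp cells the Abcc8 level was 3.71 times as high in the means and higher in 3 of 3 pools, with a log2 fold change of 1.90 ± 0.47 and adjusted p = 0.160 by edgeR. Abcc8 was therefore not called here (0.269% of 9656 genes were called). Between Gip and Gcg cells the log2 fold change was 1.19 ± 0.46, again higher in 3 of 3 pools, with adjusted p = 0.283 by edgeR. Neither tested member was called in this comparison (1.12% of genes were). By limma on the mean log2(CPM + 1) of single cells the Gip against Gcg difference of Abcc8 turned to -0.23. The mean CPM over cells was 129, 204 and 362 in Gip and 150, 115 and 153 in Gcg cells, lower in Gip cells in pool SLX-11175 and higher in the other pools.

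To compare shares of cells with a read across depths, each cell was thinned to 20000 reads. Thinning does not even out library composition, here or in the shares below. Gip itself took 28.1, 44.5 and 37.9% of the reads of the Gip sums. Their TMM factors were 0.676 to 0.797, against 0.910 to 1.31 for the Gcg and 1.06 to 1.51 for the Pzp sums. The part of composition in the thinned shares was not tested. Abcc8 was then found in 13 of 16, 15 of 18 and 17 of 19 Gcg cells (81.2%, 83.3% and 89.5%). It was found in 6 of 10, 4 of 5 and 9 of 10 Gip cells and in 5 of 14, 7 of 22 and 12 of 28 Pzp cells. Over all pools this was 84.9% of Gcg cells (exact 95% interval 72.4 to 93.3%), 76% of Gip cells (54.9 to 90.6%) and 37.5% of Pzp cells (25.7 to 50.5%). Without thinning the shares were 96.2%, 80% and 64.1%. The intervals cover counting error only, since reads without molecular identifiers are not independent molecules and cells of a pool share an animal.

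As a check on stray reads, Abcc8 was read in the other cells that lacked the endocrine transcripts Chga and Chgb (under 100 CPM of both together). In these cells 3 of 34 had an Abcc8 read after thinning (8.82%, exact 95% interval 1.86 to 23.7%). Their median depth was 57786 reads, against 93670 in Gcg and 110677 in Pzp cells. Their summed Abcc8 was 0.423, 0.907 and 0.309 CPM in the 3 pools, far below the 29.4 to 51.8 CPM of Pzp cells on the same unscaled measure. In the 3 cells with at least 100 CPM of the leukocyte gene Ptprc, all of the deep pool, Abcc8 had 2 reads in all. As means over cells, the level was 2.07, 3.00 and 0.445 CPM in the cells without Chga and Chgb and 43.5, 51.9 and 36.7 CPM in Pzp cells. The Abcc8 level of the Pzp class was thus above this background. Within each pool the exact intervals of the thinned shares overlapped.

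Kcnj11, the pore subunit, was rare. It had a read in 21 of the 250 cells (8.4%) and 547 reads in all, and 1 cell of the deep pool, past no class threshold, held 163 of these (29.8%). Only 13 cells reached 10 CPM. In Gcg cells there were 10, 5 and 204 Kcnj11 reads in the 3 pools, an unscaled 8.93, 3.13 and 4.12 CPM of the class sums. In Gip cells there were 0, 0 and 1 reads, the last equal to 0.0728 CPM (exact Poisson 95% interval 0.00184 to 0.406). In Pzp cells there were 2, 9 and 32 reads, or 2.35, 5.55 and 0.543 CPM. The Gip sum of the deep pool lay below those of Gcg and Pzp cells. In the shallow pools the exact upper limits for 0 reads in Gip cells (8.77 and 6.60 CPM) were above the Pzp sums and lay within the intervals of the Gcg sums (4.28 to 16.4 and 1.02 to 7.30 CPM), so no order could be seen there at this depth. All 10 Gcg reads of pool SLX-11175 came from 1 cell. The Gcg and Pzp sums overlapped.

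These Kcnj11 sums rested on few cells. In pool SLX-11175 all 10 reads of the Gcg class came from 1 cell (55.4 CPM), and in pool SLX-9703 2 of 19 Gcg cells held 101 and 83 of the 204 reads (37.1 and 40.1 CPM). The 9 reads of the Pzp class in pool SLX-11179 came from 1 cell (82.1 CPM). Of 15 Gip cells in the shallow pools none had a Kcnj11 read. Taking 3 counts over the number of cells as the limit that a count of 0 allows, here and below, this leaves a share of up to 30% of the 10 cells of pool SLX-11175 and up to 60% of the 5 cells of pool SLX-11179. After thinning, a read remained in 1 of 53 Gcg cells, 0 of 25 Gip cells (up to 12%) and 2 of 64 Pzp cells.

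Kcnj11 did not pass the filter on low counts in the fit of the 3 classes. In the fit without that filter it was not called in any comparison of these classes, with adjusted p = 1 for Gcg against Pzp, 0.392 for Gip against Gcg and 0.793 for Gip against Pzp cells (edgeR). Those tests rest on the few reads given above. None of the 34 cells without Chga and Chgb had a Kcnj11 read (up to 8.82%).

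The balance of the channel's subunits was read per length of transcript, as CPM of the unscaled sums divided by kilobases of exon. In Gcg cells the Abcc8 level was 16.6, 14.3 and 17.3 on this scale and that of Kcnj11 was 2.43, 0.851 and 1.12. Abcc8 was thus 6.82, 16.8 and 15.4 times as high per length in the 3 pools. In Pzp cells the ratio was 4.24 in pool SLX-11179 and 34.4 in pool SLX-9703. In Gip cells of the deep pool Abcc8 had 4281 reads and Kcnj11 1. In every class sum with a Kcnj11 read, the Abcc8 level per length was the higher of the pair.

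At full depth, most cells with Kcnj11 also held Abcc8, as most cells of the Gcg and Gip classes did. Of the 21 cells with a Kcnj11 read, 20 had an Abcc8 read, as did 12 of the 13 cells with at least 10 CPM. The joint count was 7 in Gcg, 1 in Gip, 5 in Pzp and 6 in other cells. The product of the separate shares gives 7.70, 0.8, 3.20 and 3.15 in the same order. After thinning to 20000 reads, 0 of 1 Gcg, 1 of 2 Pzp and 0 of 1 other cells with a Kcnj11 read had an Abcc8 read. Since 51 of 53 Gcg cells and all 10 deep Gip cells had Abcc8, the product cannot show there whether the genes go together. In Pzp and other cells the joint counts at full depth were above the product, over pools of unlike depth. The cells are too few to say more. The cell with the most Kcnj11 (310 CPM) had 1 Abcc8 read (1.90 CPM), and the Gcg cell of pool SLX-11175 with 55.4 CPM of Kcnj11 had none. The reverse did not hold, since 44 of 51 Gcg cells, 19 of 20 Gip cells and 36 of 41 Pzp cells with an Abcc8 read had no Kcnj11 read.

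**Figure D2:**
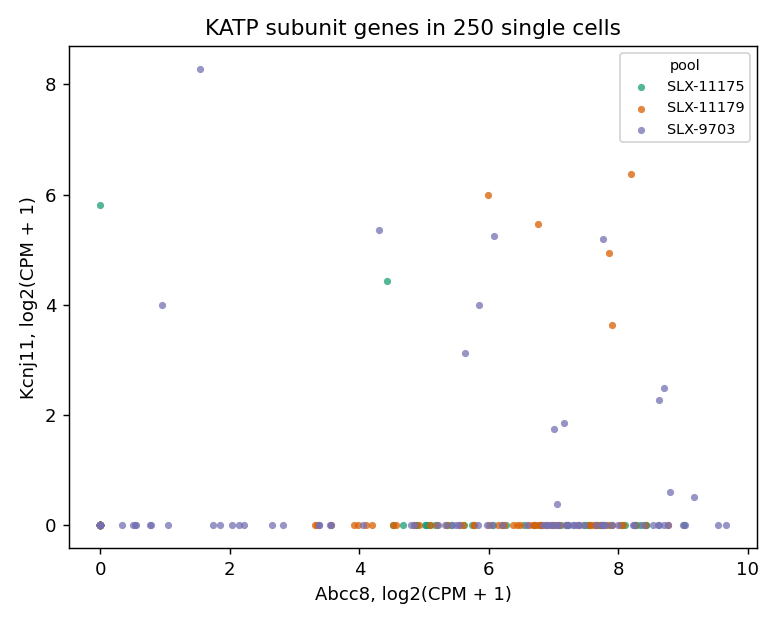
Kcnj11 against Abcc8 in 250 single cells, both as log2(CPM + 1), with 1 point per cell and colours for the 3 pools. Most cells with Abcc8 lie at 0 for Kcnj11, and the cell with 310 CPM of Kcnj11 stands at the left with 1.90 CPM of Abcc8.

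Slc5a1, the sodium-coupled glucose carrier, was lowest in Pzp cells, like Abcc8, but was found in fewer cells. In Gcg cells it ranged from 0 to 370 CPM (median 43.8) in pool SLX-11175, from 0 to 204 CPM (median 25.9) in pool SLX-11179 and from 0.575 to 620 CPM (median 81) in pool SLX-9703. In Gip cells the medians were 0, 23.6 and 39 CPM, with a highest cell of 90.6, 316 and 275 CPM. In Pzp cells the medians were 0, 0 and 1.15 CPM, and the highest cells had 51.9, 72.8 and 187 CPM. In the deep pool the typical Pzp cell thus had almost no Slc5a1. In the shallow pools the median Pzp cell had 56571 and 67984 reads, too few for a median of 0 to show this.

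The Slc5a1 class sums after TMM were 70.7, 51.6 and 91.6 CPM in Gcg cells (71.3 ± 20.0), 42.2, 182 and 179 CPM in Gip cells (134 ± 79.7) and 5.56, 8.08 and 14.7 CPM in Pzp cells (9.45 ± 4.72). The Pzp sums were below all Gcg and Gip sums, and the Gcg and Gip sums overlapped. In the means Slc5a1 was 7.54 times as high in Gcg as in Pzp cells, with a log2 fold change of 3.02 ± 0.58, higher in 3 of 3 pools and adjusted p = 0.0435 by edgeR. Of the 2 members tested in this comparison it was the one called. It was 14.2 times as high in Gip as in Pzp cells, with a log2 fold change of 3.78 ± 0.60, higher in 3 of 3 pools and adjusted p = 0.00207 by edgeR. In pool SLX-11179, 2 of the 5 Gip cells held 35 and 43 of the 81 Slc5a1 reads.

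Both calls were lost in some fits with a pool left out. The Gcg against Pzp call of Slc5a1 was lost without any 1 of the pools (adjusted p = 0.230 to 0.360, log2 fold change 2.63 to 3.26) and without the pool as a replicate block (2.84, adjusted p = 0.104), all by edgeR. The Gip against Pzp call was lost without pool SLX-11179 (3.31, adjusted p = 0.0735).

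Between Gip and Gcg cells the Slc5a1 log2 fold change was 0.76 ± 0.54 with adjusted p = 0.631 by edgeR, so the data place no order on these classes. In pool SLX-11175 the Gip sum was the lower and in both other pools the higher. By limma on the mean log2(CPM + 1) of single cells the difference turned to -0.67. The 12 enterocyte markers, which mark the tissue's main Slc5a1 cell, summed to 2494 to 3762 CPM in Gcg, 2838 to 3986 in Pzp and 782 to 1769 in Gip sums. The Gcg and Pzp ranges overlapped and the Gip range lay below both. Of the listed markers, Sis, Fabp2 and Anpep were lowest in Gip sums in every pool. Rbp2 went the other way, at 209, 485 and 554 CPM in Gip, 136, 89.5 and 378 in Gcg and 35.3, 66.6 and 82 in Pzp sums. The part of enterocyte RNA in the Slc5a1 differences was not tested.

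After thinning, Slc5a1 was found in 8 of 16, 9 of 18 and 14 of 19 Gcg cells, in 3 of 10, 2 of 5 and 4 of 10 Gip cells, and in 1 of 14, 4 of 22 and 5 of 28 Pzp cells. Over all pools this was 58.5% of Gcg cells (exact 95% interval 44.1 to 71.9%), 36% of Gip cells (18 to 57.5%) and 15.6% of Pzp cells (7.76 to 26.9%). Without thinning the shares were 77.4%, 68% and 40.6%. In the deep pool 4 of 10 Gip cells and 7 of 19 Gcg cells passed 100 CPM.

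Cells without Chga and Chgb were a poor blank for Slc5a1, since some of them carried enterocyte markers at a high level. After thinning 6 of these 34 cells had an Slc5a1 read (17.6%, exact 95% interval 6.76 to 34.5%), against 15.6% of Pzp cells, and these cells set no background for Slc5a1. The highest of them in each pool had 306, 435 and 618 CPM of Slc5a1, and enterocyte markers summing to 31753, 12715 and 37148 CPM. The 3 Ptprc cells held 2 Slc5a1 reads (0.336 CPM).

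Slc2a2, the facilitative carrier, was as rare as Kcnj11. It had a read in 21 of 250 cells (8.4%), 18 of them in the deep pool, and 13 of these cells had 1 to 3 reads. Of its 816 reads, 542 (66.4%) came from 1 cell of the deep pool past no class threshold, with 144 CPM of Slc2a2, 618 CPM of Slc5a1 and 45.8 CPM of Chga and Chgb together. In Gcg cells there were 0, 7 and 33 reads (0, 4.38 and 0.666 CPM of the unscaled sums), and all 7 came from 1 cell. In Gip cells there were 0, 0 and 1 reads, and in Pzp cells 0, 0 and 154 reads (2.61 CPM in the deep pool). The class sums overlapped, being 0 in all classes of pool SLX-11175.

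In the deep pool 2 Pzp cells held 62 and 88 of the 154 Slc2a2 reads (24.9 and 22.1 CPM), and 1 Gcg cell held 25 of 33 (11.5 CPM). In this pool the median of the enterocyte markers was higher in cells with Slc2a2, although the ranges overlapped. The 18 deep cells with an Slc2a2 read had 40.7 to 120409 CPM of these markers (median 4572). The 5 deep cells with at least 10 CPM of Slc2a2 had enterocyte markers summing to 3717 to 120409 CPM (median 30401), against 7.52 to 7165 CPM (median 2796) in the 70 deep cells without an Slc2a2 read. In pool SLX-11179 the 3 cells past that level had 0 to 3409 CPM (median 2707) and the 84 cells without a read 0 to 12715 CPM (median 2164). The part of enterocyte RNA in these reads was not tested. Slc2a2 did not pass the filter on low counts, and without the filter adjusted p was 1 for Gcg against Pzp, 0.919 for Gip against Gcg and 0.962 for Gip against Pzp cells (edgeR).

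After thinning, Slc2a2 was found in 1 of 53 Gcg cells, 0 of 25 Gip cells (up to 12%) and 2 of 64 Pzp cells, and in 3 of 34 cells without Chga and Chgb (8.82%). These reference cells include the one with 542 Slc2a2 reads and 37148 CPM of enterocyte markers, so they set no background for Slc2a2.

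Co-detection was counted within pools after thinning. Abcc8 and Slc5a1 were found together in 8 of 16, 9 of 18 and 12 of 19 Gcg cells (50%, 50% and 63.2%). The product of the separate shares would give 6.50, 7.50 and 12.5 such cells. The joint counts lay within 1.5 cells of it, but in the shallow pools every Slc5a1 cell also had Abcc8. There 8 and 9 were the highest joint counts possible, so this closeness cannot show whether the genes go together. They were together in 2 of 10, 1 of 5 and 4 of 10 Gip cells, where the product gives 1.80, 1.6 and 3.6. In Pzp cells they were together in 0 of 14, 2 of 22 and 0 of 28, where it gives 0.357, 1.27 and 2.14. Over all pools both were found in 54.7% of Gcg cells (exact 95% interval 40.4 to 68.4%), 28% of Gip cells (12.1 to 49.4%) and 3.12% of Pzp cells (0.381 to 10.8%). Without thinning, in the same cells, they were 75.5%, 60% and 29.7%. Thinned to 50000 reads, which left 47 Gcg, 16 Gip (2 of 10 in pool SLX-11175) and 52 Pzp cells and so changed the cells as well as the depth, they were 59.6%, 56.2% and 9.62%.

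Few Gcg cells lacked Abcc8, so few could hold Slc5a1 alone. After thinning, 16 Gcg cells had Abcc8 alone, 2 had Slc5a1 alone and 6 had neither. At full depth and a level of 10 CPM, 9, 11 and 15 Gcg cells of the 3 pools had both genes, 6, 6 and 4 had Abcc8 alone, and none had Slc5a1 alone. In Pzp cells at that level 1, 4 and 3 cells had both, 5, 8 and 11 had Abcc8 alone and 1, 2 and 6 had Slc5a1 alone. In Gip cells 3, 2 and 7 had both, 3, 2 and 3 had Abcc8 alone and 1, 1 and 0 had Slc5a1 alone.

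**Figure D3:**
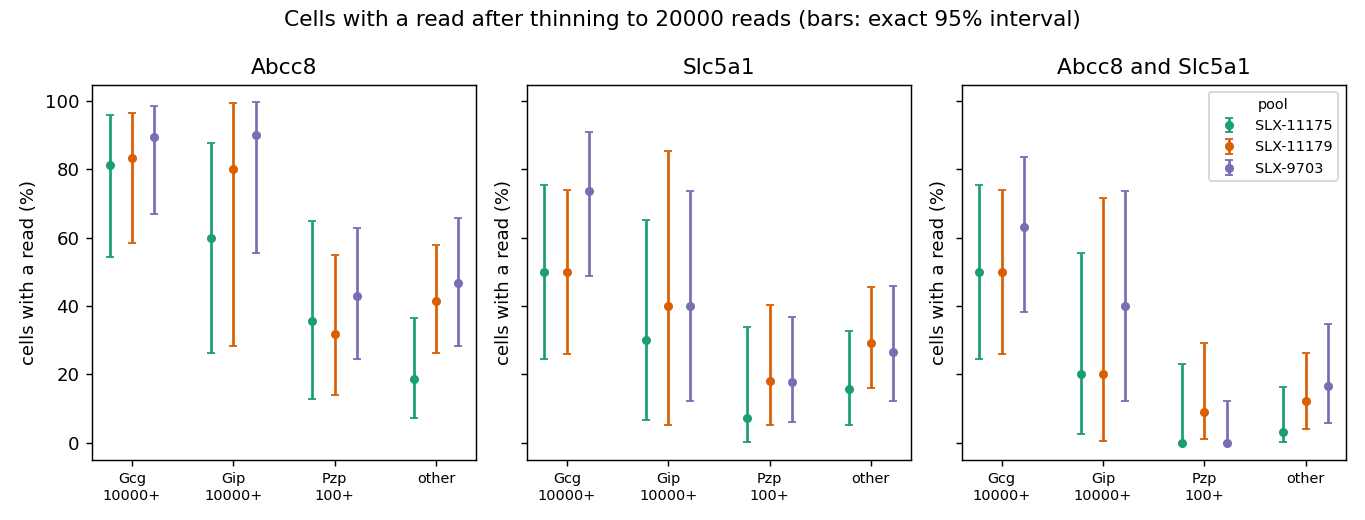
Percent of cells with a read of Abcc8, of Slc5a1 and of both after thinning each cell to 20000 reads, by class, with 1 point per pool and bars for the exact 95% interval. Joint detection was 50 to 63.2% in Gcg cells and 0 to 9.09% in Pzp cells.

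The levels of Abcc8 and Slc5a1 correlated with mixed sign over pools in Gcg and Gip cells and weakly in Pzp cells. Over log2(CPM + 1) in the Gcg cells, Pearson's r was 0.37 (n = 16 cells), 0.25 (n = 18) and -0.27 (n = 19) in the 3 pools, in Gip cells 0.32 (n = 10), -0.71 (n = 5) and 0.21 (n = 10), and in Pzp cells 0.18 (n = 14), 0.23 (n = 22) and -0.02 (n = 28), where Spearman's rho was 0.16, 0.18 and 0.04. Over all cells of a pool it was 0.43 (n = 75), 0.12 (n = 87) and 0.31 (n = 88). These are descriptions over cells that share a pool and its depth.

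The 5 cells past more than 1 threshold were kept apart. In the 4 cells with both Gcg and Gip, Abcc8 was at 342, 104, 231 and 436 CPM and Slc5a1 at 76, 76.3, 592 and 475 CPM. All 4 thus held both genes, and 1 of them (pool SLX-11179) also had 5 Kcnj11 reads (29.6 CPM). The cell with Gcg and Pzp had no Abcc8 read and 3 Slc5a1 reads (72.7 CPM). None of the 5 had an Slc2a2 read.

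Against the other cells, no member was called. The unscaled Abcc8 sums of the other cells were 13.7, 46.4 and 159 CPM and those of Slc5a1 20.7, 39.9 and 82.6 CPM, and in the deep pool 2321 of the 3708 Slc5a1 reads came from the single cell with 144 CPM of Slc2a2. The mean of the 3 hormone classes minus the other cells had a log2 fold change of 0.55 ± 0.36 for Abcc8 (adjusted p = 0.742), -0.42 ± 0.37 for Slc5a1 (0.856) and -1.16 ± 1.22 for Kcnj11 (0.892), by edgeR over 12 sums. The Kcnj11 value was -1.90 without pool SLX-11175 and -1.84 without pool SLX-11179, and 1 cell held 163 of the 275 Kcnj11 reads of the other cells in the deep pool. None of the 3 tested members was called, and 1.35% of 11371 genes were. These other cells are a mixture, with immune markers from 249 to 350823 CPM in their sums, whose part in the comparison was not tested. With a mitochondrial limit of 10% the Slc5a1 difference turned to 0.09, and by limma on the mean log2(CPM + 1) of single cells it was 0.96, while Abcc8 was then called (2.16, adjusted p = 0.0426).

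The other cells were split, after their values were seen, by 10000 CPM of Cck, the cholecystokinin transcript. In the deep pool all 15 other cells past that level had Abcc8 at 56.9 to 524 CPM (median 217). Of the 11 deep cells with Chga and Chgb but less Cck, 1 had Abcc8 at 393 CPM and the next at 9.38 CPM. In pool SLX-11179 all 13 cells past the level had Abcc8 at 17.3 to 267 CPM (median 111), against 5 of 14 cells with Chga and Chgb and less Cck. In pool SLX-11175 these were 7 of 9 cells against 0 of 7. The cells were not thinned here, and the median depth of the Cck cells and of the cells with less Cck was 57078 and 34437 reads there, 71870 and 70496.5 for pool SLX-11179, and 1774380 and 525495 for the deep pool. Among the hormone classes 15, 18 and 18 of the Gcg cells, 0, 1 and 1 of the Gip cells and 14, 20 and 27 of the Pzp cells also passed this Cck level. Since the split was chosen for its values, these counts are a description with no test.

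Slc5a1 showed this split in pool SLX-11175 alone, and the difference between the genes was not tested. In the Cck cells of the deep pool it had a median of 8.57 CPM, with a highest cell of 281 CPM and the next at 64.8 CPM. In pool SLX-11179 4 of 13 Cck cells had an Slc5a1 read, against 9 of 14 cells with Chga and Chgb and less Cck. In pool SLX-11175 it was 5 of 9 against 0 of 7, and in the deep pool 12 of 15 against 9 of 11. Kcnj11 was read in 0, 1 and 3 and Slc2a2 in 0, 0 and 2 of these Cck cells.

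**Figure D4:**
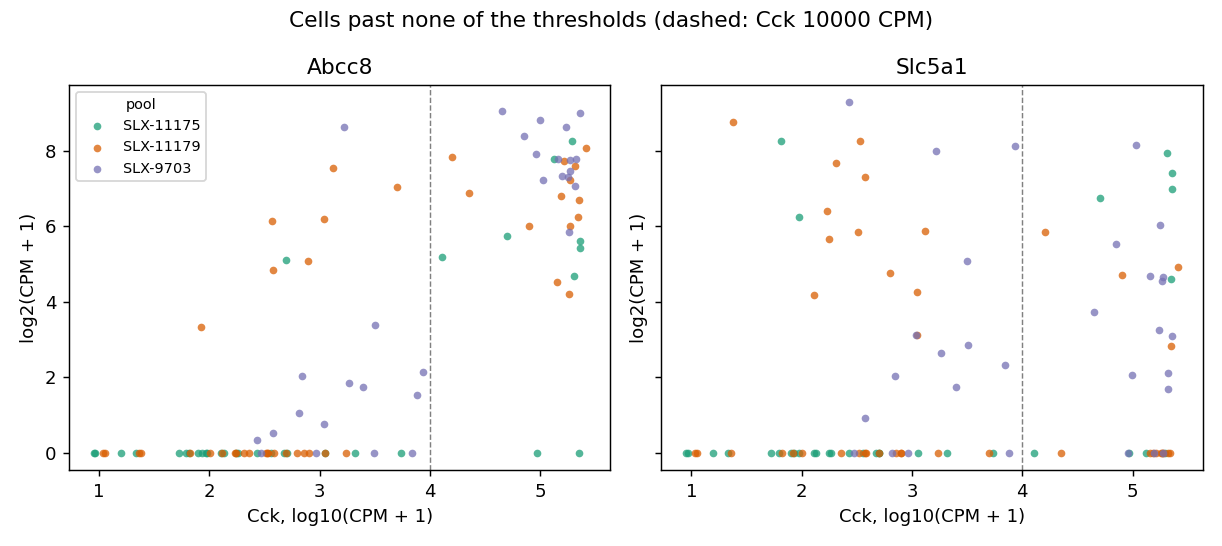
Abcc8 and Slc5a1 as log2(CPM + 1) against Cck as log10(CPM + 1) in the 103 cells past none of the class thresholds, with 1 point per cell and a dashed line at 10000 CPM of Cck. Abcc8 was above 0 in 7 of 9, 13 of 13 and 15 of 15 cells right of the line, and Slc5a1 in 5 of 9, 4 of 13 and 12 of 15.

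The genes whose pattern over the 88 deep cells was most like that of each member were ranked by Pearson's r of log2(CPM + 1) among 7969 genes with a read in most of these cells. For Abcc8 they were Isl1 (r = 0.66), Slc6a19 (0.63), Sphkap (0.62), Ptprn2 (0.57) and Rimbp2 (0.56). Isl1 is an endocrine transcription factor, Slc6a19 a neutral amino acid carrier and Ptprn2 a protein of secretory granules. In the shallow pools r with Abcc8 was 0.38 (n = 75) and 0.51 (n = 87) for Isl1 and 0.37 and 0.41 for Slc6a19. Within the deep Gcg cells r with Isl1 was -0.25 and within the deep Gip cells 0.82.

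For Slc5a1 the nearest genes were Rbp2 (0.51), a retinol carrier of enterocytes, Sphkap (0.48), Tspan7 (0.47), Gm1123 (0.46) and the chemokine Ccl28 (0.45). In the shallow pools r with Slc5a1 was 0.14 and 0.41 for Rbp2, and 0.42 and 0.27 for Sphkap. Sphkap, an anchor of protein kinase A, was thus among the nearest of both. For Slc2a2 the nearest were Ppargc1a (0.62), Reg3b (0.61), Mylk (0.60), Prlr (0.57) and Reg1 (0.57), with Spearman's rho of 0.16 for Ppargc1a and 0.41 for Reg3b, the highest rho of the 7969 genes. In pool SLX-11179 r with Slc2a2 was 0.03, -0.06, 0.06, -0.10 and -0.04 for these 5 genes, and pool SLX-11175 had no Slc2a2 read. For Kcnj11 the nearest were Ccl28 (0.43), Gm4857 (0.40), Unkl (0.36), Myzap (0.33) and Gm38224 (0.32). In counts as sparse as those of Kcnj11 and Slc2a2 such values are no finding. These cells share a pool, its depth and their class, and r is a description.

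Around the members, 70 genes of the same pathways were listed, and 41 of them were tested in the 3 classes. Of these, 0 were called between Gcg and Pzp cells by edgeR (26 of 9656 genes were, 418 at an unadjusted p under 0.05, and DESeq2 called 117 genes). Between Gip and Gcg cells 0 were higher and 2 lower (1.12% of all genes tested were called). Between Gip and Pzp cells 1 was higher and 3 were lower (2.86% of all genes). Between the hormone classes and the other cells 1 of 43 was higher and 1 lower (1.35% of all genes).

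Among channel relatives and partners, 4 of 7 genes were tested, with a median log2 fold change of -0.83 between Gip and Pzp cells (all genes tested: -0.24). Kcnj8 and Abcc9, which encode the vascular KATP subunits, had 4 and 26 reads in all cells. Kcnk16, a background potassium channel known from islets, was at 56.2, 45.4 and 43.1 CPM in Gcg cells, 25.6, 55.6 and 48.9 CPM in Pzp cells and 0, 0 and 0.478 CPM in Gip cells. It was lower in Gip cells than in Gcg cells (adjusted p = 0.00196) and than in Pzp cells (0.00123, edgeR). Kcnh6, a voltage-gated potassium channel, was at 59.7 ± 14.1, 22.8 ± 17 and 77.7 ± 24.2 CPM in Gcg, Gip and Pzp cells and was not called.

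Of 18 other glucose and fructose carriers, 3 were tested and none was called, with a median of -0.42 for Gip against Pzp cells. Slc2a5, the fructose carrier GLUT5, was at 63.1 ± 22.3 CPM in Gcg, 67.5 ± 35.9 in Gip and 24 ± 2.09 in Pzp cells. Slc2a1, the widespread GLUT1, was at 2.68 ± 3.03, 8.90 ± 10.4 and 12.5 ± 1.01 CPM. Slc5a2, the kidney's SGLT2, had 0 reads in all cells. Per length, Slc2a5 had 18.6, 19.9 and 7.06 CPM per kilobase in the 3 classes, above Slc2a1 with 0.763, 2.54 and 3.56.

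Of 17 genes of glucose phosphorylation and glycolysis, 13 were tested, and none was called between the 3 classes (median 0.35 for Gip against Pzp cells). Pkm, pyruvate kinase, was at 190 ± 56.1 CPM in Gcg, 213 ± 28.3 in Gip and 271 ± 93.4 in Pzp cells. Hk2, a hexokinase, was at 81.6 ± 30.6, 83.3 ± 75.7 and 34.7 ± 19.7 CPM. Ldha, lactate dehydrogenase A, was lower in the hormone classes than in the other cells, by a log2 fold change of -1.54 (adjusted p = 0.0378, edgeR). Of 7 sweet taste genes 1 was tested (Itpr3, not called), and the receptor genes Tas1r2 and Tas1r3 and the channel gene Trpm5 had 55, 476 and 1 reads in all cells.

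Of 13 voltage-gated channel genes 12 were tested (median -0.35 for Gip against Pzp cells). Scn3a, a sodium channel, was at 9.36, 32.3 and 33.6 CPM in Gcg, 7.04, 6.73 and 2.01 CPM in Gip and 75.6, 83.4 and 69.2 CPM in Pzp cells. It was lower in Gip than in Pzp cells by a log2 fold change of -4.34 (adjusted p = 0.00866, edgeR), while Gcg against Gip was not called (0.148). Cacnb3 and Cacna2d1, auxiliary subunits of calcium channels and the most abundant of the list per length, were not called. Cacnb3 was at 56.1 ± 26 CPM in Gcg, 41.3 ± 35.8 in Gip and 65.4 ± 30.5 in Pzp cells, and Cacna2d1 at 120 ± 18.7, 188 ± 171 and 107 ± 35.8 CPM.

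All 8 transcription factors listed as known to act on the members were tested (median 0.34 for Gip against Pzp cells). Isl1 had the same order of class means as Abcc8, with sums of 328, 233 and 239 CPM in Gcg, 306, 689 and 600 CPM in Gip and 65.6, 92 and 76.1 CPM in Pzp cells. It was higher in Gip than in Pzp cells (log2 fold change 2.75, adjusted p = 0.00322) and in the hormone classes than in the other cells (1.68, adjusted p = 0.0253, edgeR). Between Gcg and Pzp cells it was not called (1.81, adjusted p = 0.148). Neurod1, the helix-loop-helix factor named with the promoters, was at 665 ± 108 CPM in Gcg, 168 ± 96.7 in Gip and 572 ± 148 in Pzp cells. It was lower in Gip than in Gcg cells (-2.10, adjusted p = 0.0275) and than in Pzp cells (-1.86, adjusted p = 0.0308, edgeR).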

How the data were processed

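The authors deposited raw counts of reads per gene for every cell, with no normalization. Per the labels' processing notes, reads were aligned with GSNAP to mm10 and counted with HTSeq (0.5.3p3). Lines that name no gene held 77.6% of the counts and spike-ins 5.34%; both stayed out of library sizes. A further 4 columns of per-sample values matched no sample and were not used. Symbols and coordinates come from GENCODE M21 (45143 of 46078 identifiers matched).

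The 4 members, the pathway lists and the marker lists were chosen with earlier results of these data known. The genes named are the members, the listed genes that were called, the 2 most abundant per length of each list, and the 5 genes most like each member. Kcnj8, Abcc9, Slc5a2, Hk2, Tas1r2 and Trpm5 were added after their values were seen. The values of 1 listed gene are not reported here. The labels name the pool of a cell and neither its mouse nor its fluorescence. Doublets were not called, and by the study's account small groups of cells could not be fully excluded in sorting.

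The counts of each class were added up within a pool (3 or more cells), TMM-normalized and tested with edgeR 4.0.16 (R 4.3.3; quasi-likelihood, filterByExpr, Benjamini-Hochberg over all genes tested, 0.05) with the pool as a block, since a pool was taken as 1 animal. Deviations from class means correlated from 0.033 to 0.412 within pools (9 pairs) and from -0.214 to 0.0957 between pools (18 pairs). One fit held the 9 sums of the 3 classes and another also the 3 sums of the other cells. Levels are mean ± SD over pools. The procedure was run on simulated sums with planted fold changes larger than those of the called members and no pool effect. It therefore does not show how often changes of the sizes seen here are found. Alternatives were DESeq2 1.42.0, limma 3.58.1 on mean log2(CPM + 1) per class and pool, other depth and mitochondrial limits, 3 times higher class thresholds, no filter on low counts, library sizes without 8 hormone and class genes, thinning, no pool block and each pool left out.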

Additional observations from a re-analysis of the deposited data

Results flagged for a closer look

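The Slc5a1 level of Gip cells relative to Gcg cells went in opposite directions in different pools. On the scale of log2(CPM + 1) of the TMM-scaled class sums, Gip minus Gcg was -0.73 in pool SLX-11175, 1.80 in pool SLX-11179 and 0.96 in pool SLX-9703. The difference between pools was not tested. The Gip class of pool SLX-11175 held 10 cells with a median of 28664.5 reads and 12 Slc5a1 reads in all.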

How the results depend on the processing

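Of 251 alternative values of the class comparisons, 202 kept their direction and call (for a count of genes, within 1.5 times), 31 counts of genes moved further, 6 calls were lost, 4 were gained and 8 values changed sign. Of 105 alternative shares of cells, 80 moved by less than the spread between pools and 25 by more. The genes called numbered 26 (Gcg against Pzp), 108 (Gip against Gcg), 276 (Gip against Pzp) and 153 (hormone classes against other cells). DESeq2 called 117, 548, 797 and 334, and edgeR without a filter on low counts 70, 250, 453 and 1123. limma on the mean log2(CPM + 1) of single cells called 95, 1274 and 1988 in the first 3 comparisons. With 50000 reads per cell the counts were 60 (Gip against Gcg), 163 (Gip against Pzp) and 256 (against other cells), and with a mitochondrial limit of 10% 89 (against other cells). Thinned cells gave 59 (Gcg against Pzp), 166 (Gip against Gcg) and 68 (against other cells). Higher thresholds gave 40 for Gcg against Pzp, and assigning the cells past more than 1 threshold gave 42 there and 67 for Gip against Gcg. Leaving out each pool gave 9 to 14, 39 to 54, 100 to 131 and 114 to 238.

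Abcc8 between Gcg and Pzp cells was called by DESeq2 (1.87) and limma (3.35), with adjusted p from 0.00212 to 0.843 over its alternatives. Abcc8 between Gip and Gcg cells was called by DESeq2 (1.29) and turned by limma (-0.23; adjusted p 0.0420 to 0.845 over all). Slc5a1 turned there by limma (-0.67). Against other cells, limma gave 2.16 for Abcc8 (called), 0.96 for Slc5a1 and 0.019 for Kcnj11, and the 10% mitochondrial limit 0.086 for Slc5a1. Slc5a1 between Gcg and Pzp cells was 2.84 without the replicate block, its call lost, and 2.63 to 3.26 with a pool left out (adjusted p 5.87e-05 to 0.360 over all). The block changed no other member's call. With a pool left out, the Gip against Pzp difference was 3.31 to 3.97 for Slc5a1 and 2.67 to 3.50 for Abcc8. In fits without the filter Kcnj11 between Gcg and Pzp cells was -0.71 after thinning (1.49 at full depth), and Slc2a2 with a pool left out was -1.74 to 4.49 for Gcg against Pzp and -4.15 to 0.080 for Gip against Pzp. The cause of these changes was not tested.

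The median gene shifted by -0.24 for Gip against Pzp (limma -0.67) and -0.16 against other cells (limma 0.29), where 3.92% of called genes were higher by edgeR, 23.1% by DESeq2 and 92% by limma. For Gip against Gcg 35.2% were higher by edgeR and 6.51% by limma, for Gip against Pzp 38.4% and 6.59%, and for Gcg against Pzp 57.7% and 23.2%. A minimum of 200000 reads per cell was not run, since the shallow pools then held too few cells to be fitted. Depth limits Kcnj11 and Slc2a2, with 7 and 3 of their 21 cells each outside the deep pool.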
